A study of Mus musculus with 4 samples.

Results

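The SOX genes examined here encode 10 transcription factors that share the high-mobility-group DNA-binding domain first described in SRY. They were picked by name as a gene family, with earlier results of these data known, out of 21887 protein-coding genes of the mouse annotation: Sox1, Sox2 and Sox3 (SoxB1 subfamily), Sox4, Sox11 and Sox12 (SoxC), Sox6 (a SoxD gene), and Sox8, Sox9 and Sox10 (SoxE). All islands, meaning regions enriched for the BAF chromatin remodeller, that lay in these genes or within 100 kb of them were collected: 29 of 20966 islands from depolarized neurons and 0 of 711 islands from basal neurons.

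The islands came from BRG1/BRM ChIP-seq of wild-type primary mouse neurons, taken from E16.5 cortex and grown for 6 days in vitro. The J1 antibody recognizes BRG1 and BRM, the alternative ATPases of BAF (SWI/SNF), so the immunoprecipitation (IP) does not separate them. The basal group stayed at the basal KCl level. The KCl group received 50 mM KCl for 1 h after tetrodotoxin (1 µM) and APV (100 µM) had been added on day 5 to silence spontaneous firing, and the labels do not state whether the basal group received these blockers. Each of the 2 conditions had 1 IP and 1 input library, so differences between conditions could not be set against replicate spread or tested. Cultures of this kind hold several cell types, the lists contain no expression values with which to check the label, and more cells with BRG1/BRM at a site cannot be told apart from more BRG1/BRM per cell. Folds are IP over control reads, scaled by a constant of each deposited list. The labels do not state which input library supplied the control reads of which list, so folds are read within a list. Brackets give exact (Clopper-Pearson) 95% intervals, which reflect counting error alone.

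SOX factors act at successive steps of neural development. SoxB1 proteins hold neural progenitors in an undifferentiated state, SoxC proteins follow in newborn neurons and promote neuronal differentiation, and SoxE proteins act in the glial lineages. Sox6 lacks a transactivation domain of its own and works with other factors, among them in cortical interneurons and in the timing of oligodendrocyte differentiation. BAF opens chromatin at regulatory DNA, and its subunits are exchanged as progenitors become neurons.

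After depolarization, BRG1/BRM islands lay at the ends of 6 of the 10 SOX genes. All 3 SoxC genes, the SoxB1 genes Sox1 and Sox2, and the SoxE gene Sox9 each had 1 island within 2 kb of a gene end, whereas Sox3, Sox6, Sox8 and Sox10 had none there. Over all protein-coding genes the share with such a KCl island was 25.2%, and among those shorter than 10 kb it was 15.0%. All members but Sox6 are shorter than 10 kb. The count of 6 fell to 2 (Sox2 and Sox4) when only islands of at least 2-fold were kept, and to 0 in the first 711 KCl islands by p or by fold, as many as the basal list holds. In the gene or within 100 kb, 10 of 10 members had a KCl island, against 73.1% of all protein-coding genes. The median density was 0.968 islands per 100 kb for the members (quartiles 0.610 to 1.43). Over all genes it was 0.681, with quartiles of 0 to 1.32 that describe the spread between single genes. The median number of islands per gene was the same for the members and for all genes. Density and number alone do not show that the members are richer in islands within 100 kb, and the difference in density was not tested.

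**Figure D1:**
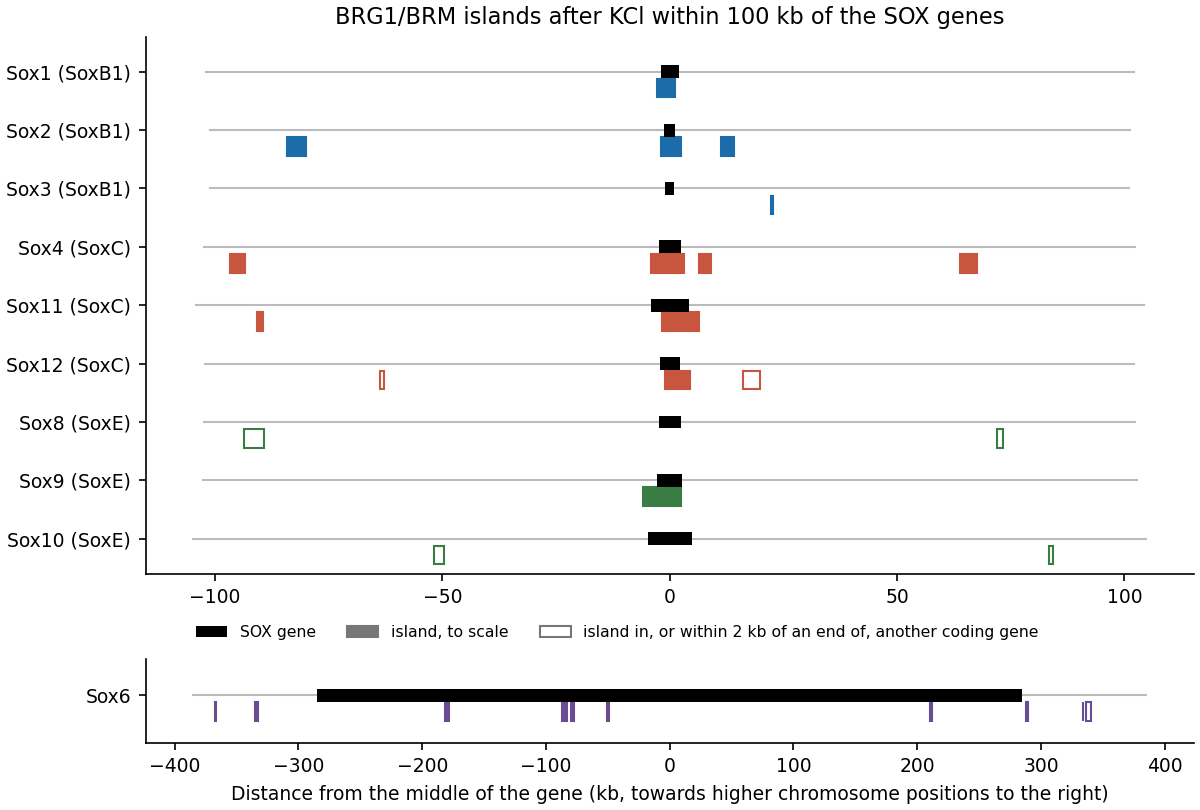
Positions of the 29 KCl islands around the 10 SOX genes, in kb from the middle of each gene, with Sox6 on its own scale. Black bars are the SOX genes, filled boxes are islands, open boxes are islands in, or within 2 kb of an end of, another coding gene, and grey lines mark the searched range. Among the 9 shorter genes filled boxes sit on 6, Sox6 has islands inside the gene, and both islands of Sox8 and of Sox10 are open boxes.

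In basal neurons 0 of 10 members had an island at a gene end, where 0.411% of all genes had one, and 0 of 10 had one in the gene or within 100 kb, where 4.71% had one. These counts are near the background of the short basal list, and a KCl list of that length also gave 0 at gene ends. The nearest basal island lay 0.266 Mb from Sox1 (78 IP and 38 control reads, 2.33-fold [1.56 to 3.53]), 0.404 Mb from Sox4 (30 and 10 reads, 3.41-fold [1.62 to 7.82]) and 0.660 Mb from Sox9 (43 and 17 reads, 2.87-fold [1.61 to 5.38]). For the other 7 members it lay between 2.09 Mb (Sox6) and 28.8 Mb (Sox3) away. None of the 29 KCl islands overlapped a basal island, and over the whole KCl list 2.15% did. The absence of a basal island does not show absence of binding, since no basal island of the list held fewer than 18 IP reads.

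The SoxC genes carried broad islands over the start of each gene. Sox4, required with Sox11 for the survival and maturation of newborn neurons, had an island of 7200 bp that covered the whole gene (chromosome 13, 28947201 to 28954400). Its 247 IP reads, against 73 in the control, were the most of any member island, an enrichment of 2.13-fold [1.63 to 2.80]. Sox11, whose product activates neuronal genes such as those of the cytoskeleton, had an island of 8200 bp (chromosome 12, 27336801 to 27345000) in which 230 IP reads stood against 91 control reads (1.59-fold [1.24 to 2.05]). This island covered 70.0% of the gene, including its start. Sox12, the weakest transactivator of the subfamily, had an island of 5400 bp (chromosome 2, 152394801 to 152400200), in which 171 IP reads stood against 59 control reads (1.82-fold [1.35 to 2.49]), over 73.2% of the gene. The Sox4 island also overlaps the long noncoding genes Gm46405 and Gm46406. The intervals of the 3 folds overlapped, so no order among the SoxC genes was resolved.

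Of the SoxB1 genes, Sox2, the factor most widely used to mark neural stem cells, was covered over its whole length by an island of 4200 bp (chromosome 3, 34649401 to 34653600). The island held 96 IP and 30 control reads (2.01-fold [1.32 to 3.14]). Sox1, an early neuroectoderm gene, had an island of 4000 bp (chromosome 8, 12394801 to 12398800) where 84 IP reads stood against 31 control reads (1.70-fold [1.12 to 2.66]) over 81.3% of the gene. Both genes lie inside long noncoding RNA genes annotated as Sox2ot and Sox1ot, so these islands are equally islands of the noncoding genes. Sox3, the X-linked member, had no island on the gene. Its only island was 600 bp wide and lay 21.2 kb away outside any annotated coding or long noncoding gene (chromosome X, 60914601 to 60915200). There, 34 IP reads stood against 2 control reads, a fold of 10.7 whose interval [2.74 to 91.7] is wide because of the low control count.

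Among the SoxE genes only Sox9 was covered. Sox9, which confers glial competence on progenitors and persists in astrocytes, had the widest island of all members, 8400 bp (chromosome 11, 112779001 to 112787400), where 226 IP reads stood against 85 control reads (1.67-fold [1.30 to 2.17]). It covered 93.6% of the gene. Around Sox8 and Sox10, which act in the oligodendrocyte lineage, every island within 100 kb lay in or at another gene. Those of Sox8 were an island at an end of Tekt4, 86.9 kb away (82 IP and 37 control reads, 1.39-fold [0.933 to 2.11]), and an island inside Lmf1, 69.5 kb away (42 and 16 reads, 1.65-fold [0.908 to 3.14]). Both intervals include 1. Those of Sox10 were an island at an end of Micall1, 44.9 kb away (75 and 27 reads, 1.74-fold [1.11 to 2.82]), and an island inside Pick1, 78.7 kb away (42 and 11 reads, 2.40-fold [1.21 to 5.16]).

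The SoxE genes without an island at an end sit among other genes, and the covered members mostly do not. Within 100 kb there were 8 other coding genes around Sox10, 3 around Sox8, 2 around Sox6 and 9 around Sox12, against 0 around Sox1, Sox2, Sox3, Sox4, Sox11 and Sox9. Sox12 was covered in spite of its neighbours, and Sox3 was not covered although its nearest coding gene, Cdr1, lay 290 kb away. The part of gene spacing in these counts was not tested.

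The RefSeq promoter table used here (GRCm38.p6) gives starts for 7 of the members. The start lay inside a KCl island for Sox1, Sox2, Sox4, Sox11 and Sox12, and for neither Sox8 nor any of the 6 starts of Sox6. Over protein-coding genes with a start in that table the share was 22.1%. The 250 bases before the start are printed for the 5 members whose start an island covered and, for contrast, for Sox8. They run 5′ to 3′ on the strand of the gene. Capitals mark every match, on either strand, to the SOX core sites ACAAAG and ACAATG, the octamer ATGCAAAT bound by POU factors, the CCAAT box, the AP-1 site in the forms TGACTCA or TGAGTCA, and the cyclic AMP response element TGACGTCA. These motifs were chosen with the sequences in view.
Sox1 (chr8:12395269-12395518, plus strand): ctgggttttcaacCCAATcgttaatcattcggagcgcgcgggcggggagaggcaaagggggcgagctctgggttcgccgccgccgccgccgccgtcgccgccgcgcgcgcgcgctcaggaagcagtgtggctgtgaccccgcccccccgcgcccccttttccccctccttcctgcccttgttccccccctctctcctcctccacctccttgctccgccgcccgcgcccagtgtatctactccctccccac
Sox2 (chr3:34649745-34649994, plus strand): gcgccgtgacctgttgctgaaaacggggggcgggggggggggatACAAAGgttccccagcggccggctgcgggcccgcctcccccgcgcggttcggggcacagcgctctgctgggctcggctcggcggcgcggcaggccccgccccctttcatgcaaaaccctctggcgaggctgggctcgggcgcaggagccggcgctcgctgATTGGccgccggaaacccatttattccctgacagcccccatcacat
Sox4 (chr13:28953700-28953949, minus strand): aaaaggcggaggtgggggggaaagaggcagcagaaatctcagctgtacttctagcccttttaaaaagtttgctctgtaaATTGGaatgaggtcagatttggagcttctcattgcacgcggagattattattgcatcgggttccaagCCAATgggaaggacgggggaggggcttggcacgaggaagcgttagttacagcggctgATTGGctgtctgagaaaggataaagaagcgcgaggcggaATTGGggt
Sox11 (chr12:27342719-27342968, minus strand): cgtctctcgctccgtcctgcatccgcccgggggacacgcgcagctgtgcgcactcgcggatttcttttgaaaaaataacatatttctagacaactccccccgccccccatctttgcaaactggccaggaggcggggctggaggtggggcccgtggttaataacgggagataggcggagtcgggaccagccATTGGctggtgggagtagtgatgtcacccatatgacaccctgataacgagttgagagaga
Sox12 (chr2:152398047-152398296, minus strand): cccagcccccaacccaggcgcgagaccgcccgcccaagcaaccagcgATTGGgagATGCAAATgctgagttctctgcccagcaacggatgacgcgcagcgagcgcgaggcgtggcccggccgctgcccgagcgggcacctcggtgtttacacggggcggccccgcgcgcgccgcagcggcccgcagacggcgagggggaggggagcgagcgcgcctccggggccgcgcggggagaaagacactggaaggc
Sox8 (chr17:25570687-25570936, minus strand): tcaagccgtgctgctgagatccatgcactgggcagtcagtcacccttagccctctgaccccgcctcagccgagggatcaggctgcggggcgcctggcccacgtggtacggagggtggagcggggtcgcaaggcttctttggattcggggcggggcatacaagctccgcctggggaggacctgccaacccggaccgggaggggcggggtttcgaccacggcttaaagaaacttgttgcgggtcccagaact

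Each of the 5 covered starts followed at least 1 CCAAT box, with 4 before Sox4 and 1 before each of the others, and Sox8 had 0. Of all 21263 coding-gene windows of this length, 35.4% held the motif. The share at covered starts alone was not computed, and a link between motif and coverage was not tested. Sox2 also held 1 ACAAAG site (14.9% of all windows) and Sox12 the octamer (1.58%). No window of these 6 held ACAATG (9.35%), an AP-1 site (4.06%) or the cyclic AMP response element (1.92%). The windows before the starts of Sox6, which are not printed, held ACAAAG at 5 of 6 starts and a CCAAT box at 2 of 6. A match is a description of these letters only, and neither a match nor its absence shows whether a factor binds.

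Base composition moved with coverage across the genome. The median GC content of these 250 bases was 64.0% at starts inside a KCl island and 53.2% at other starts. Among the covered members it was 71.2% for Sox1, 72.0% for Sox2, 50.8% for Sox4, 58.0% for Sox11 and 74.4% for Sox12, and the uncovered Sox8 start had 65.6%. The GC values of Sox4 and Sox11 were therefore below that of Sox8. Its part in the coverage was not tested.

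Sox6, the longest member at 570 kb, differed in layout. It had 10 KCl islands in or within 100 kb of the gene, 1.30 per 100 kb. Per 100 kb, only Sox4 (1.95), Sox2 (1.48) and Sox12 (1.47) had more. Sox6 had none on its ends. The island closest to an end lay 3.02 kb upstream of the gene (chromosome 7, 116043801 to 116045400), where 47 IP reads stood against 10 control reads (2.95-fold [1.47 to 6.55]), and no annotated start lay nearer than 5.06 kb to any island. Inside the gene were 5 islands, which covered 2.39% of it. The strongest of these by lower limit (chromosome 7, 115676001 to 115678800) held 98 IP and 19 control reads (3.24-fold [1.97 to 5.61]). It lay beside the widest Sox6 island, of 4400 bp, which held 122 IP and 44 control reads (1.74-fold [1.22 to 2.52]). The other islands inside the gene were 2.61-fold [1.41 to 5.21], 1.47-fold [0.917 to 2.43] and 1.47-fold [0.920 to 2.39] enriched.

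Of the remaining Sox6 islands, 2 lay downstream, at 47.7 kb (1.79-fold [1.08 to 3.11]) and 81.7 kb (2.98-fold [1.37 to 7.40]). The other 2 lay upstream inside the neighbouring gene 1110004F10Rik. The narrow one, 400 bp wide and 48.8 kb from Sox6, held 33 IP reads and 2 control reads (10.4-fold [2.65 to 89.1]), and the broad one, of 3400 bp, was 1.45-fold enriched [1.00 to 2.12]. As at Sox3, the largest fold rested on 2 control reads in a narrow island.

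Islands away from the gene were also present at Sox2, Sox4, Sox11 and Sox12. At Sox2, an island lay 78.8 kb upstream (92 IP and 31 control reads, 1.86-fold [1.23 to 2.90]) and another 9.94 kb downstream (79 and 34 reads, 1.46-fold [0.965 to 2.25]), both within Sox2ot. Sox4 had 3 such islands. The 1 with the highest fold, 91.1 kb downstream inside the long noncoding gene 2610307P16Rik, held 138 IP and 38 control reads (2.28-fold [1.58 to 3.36]). The others lay 4.10 kb (1.95-fold [1.26 to 3.10]) and 61.5 kb upstream (1.43-fold [0.992 to 2.08]). Sox11 had an island 85.3 kb downstream (51 and 15 reads, 2.14-fold [1.18 to 4.09]). The 2 islands near Sox12 belonged by position to other genes, at an end of Rbck1 (1.70-fold [0.903 to 3.41]) and across the adjoining Zcchc3 and 6820408C15Rik (1.28-fold [0.893 to 1.87]).

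**Figure D2:**
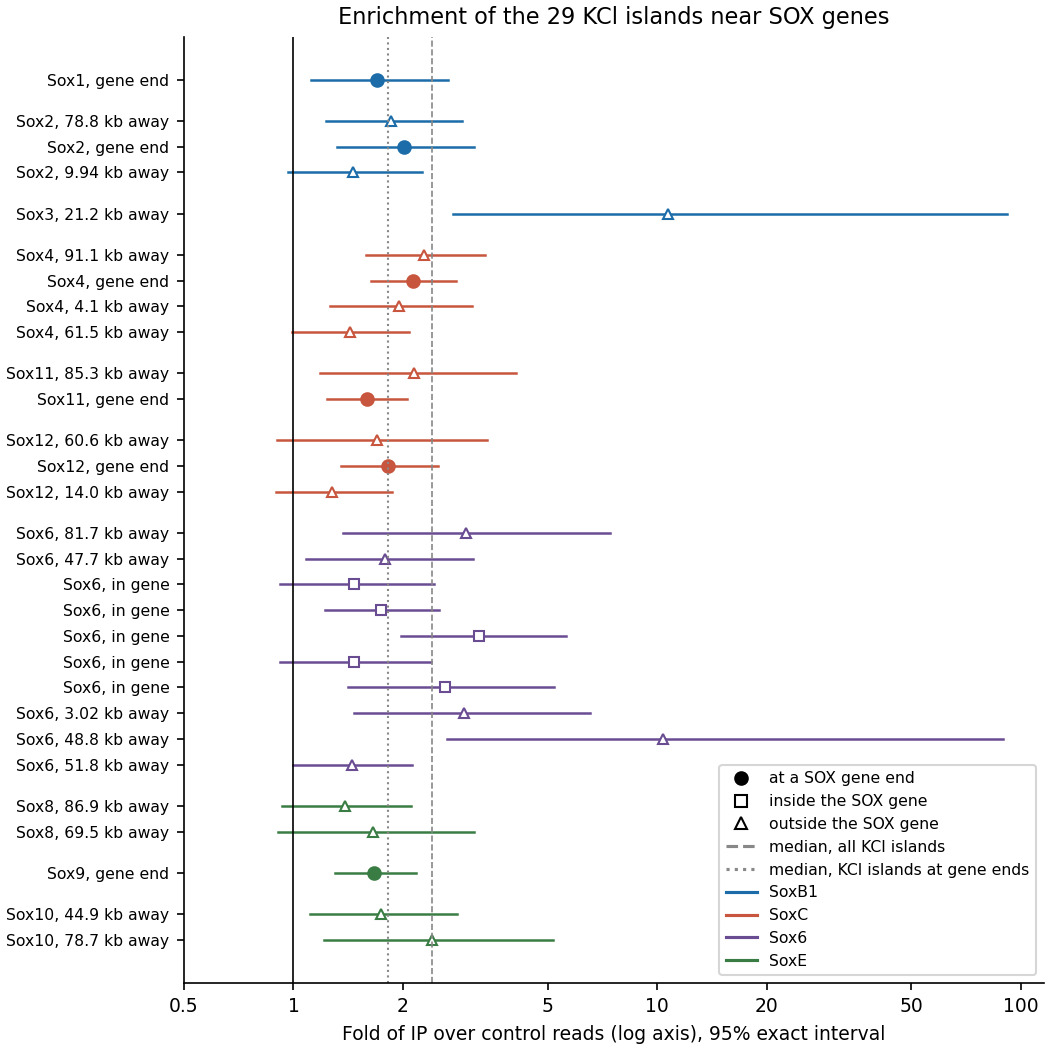
Fold of IP over control reads on a log axis for each of the 29 KCl islands, ordered by gene, with 95% exact intervals as bars. Filled circles are islands at SOX gene ends, squares islands inside Sox6, and triangles islands outside the SOX gene. The 6 circles lie between 1.59 and 2.13 with intervals above 1, left of the median of the whole list at 2.40.

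The islands at SOX gene ends were broad rather than strongly enriched. The 6 islands at SOX gene ends were 6300 bp wide in the median (range 4000 to 8400 bp), and the median of the 4856 KCl islands at coding gene ends was 2400 bp. Within those 4856 islands the widths stood at percentile 99.2 for Sox9, 99.1 for Sox11, 98.2 for Sox4, 94.7 for Sox12, 86.9 for Sox2 and 84.2 for Sox1. Their median fold was 1.76 (1.59 to 2.13), beside 1.82 for KCl islands at coding gene ends and 2.40 for all KCl islands. The interval lay above 1 at 6 of 6 SOX gene-end islands, and did so at 76.1% of KCl islands at gene ends. Such intervals narrow as reads increase, and the SOX gene-end islands held 84 to 247 IP reads, against a median of 71 at gene ends. Broad islands of low fold were not particular to SOX genes. Among the related genes described below, Pou3f2 (16000 bp, 1.59-fold), Pou3f3 (9600 bp, 1.88-fold) and Fabp7 (6000 bp, 1.84-fold) had them. Others, such as Neurod2 (2400 bp, 2.62-fold), had narrower ones. Over all 29 islands near SOX genes the median fold was 1.79, and 21 of 29 had an interval above 1, against 86.4% of the KCl list.

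**Figure D3:**
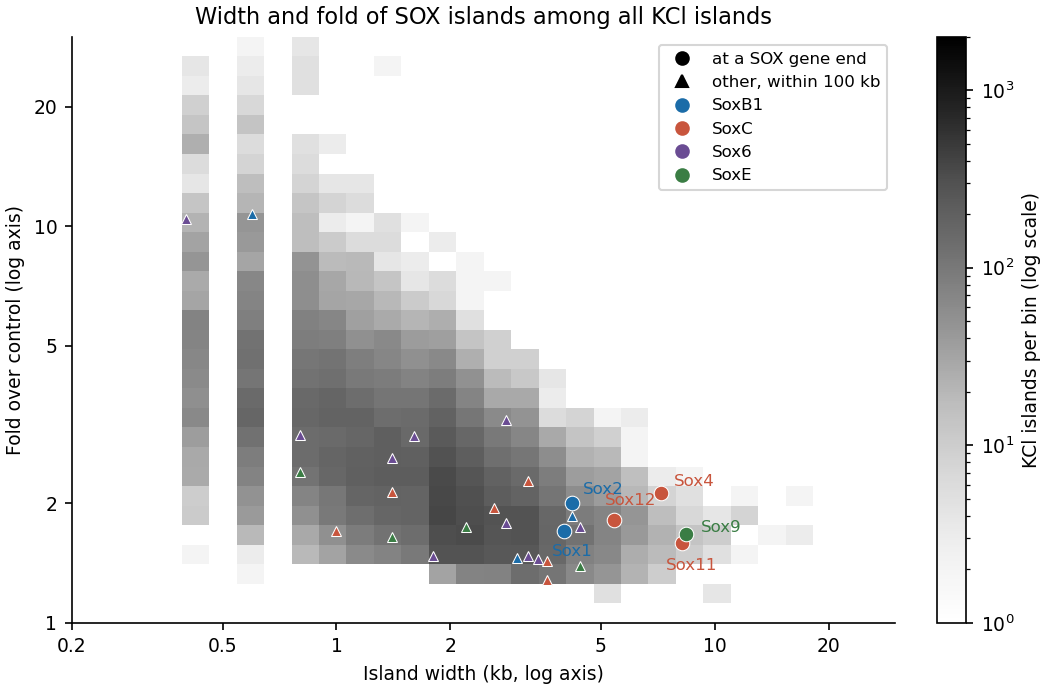
Width in kb and fold over control of KCl islands, both on log axes. Grey bins count all KCl islands up to 30-fold, with gaps at small widths because islands come in steps of 200 bp, and coloured symbols are the 29 islands near SOX genes. The 6 named circles lie at widths of 4000 to 8400 bp and folds of 1.59 to 2.13, and the narrow islands near Sox3 (600 bp) and Sox6 (400 bp) lie at 10.7-fold and 10.4-fold.

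At the gene ends, the read densities of the SoxB1 islands were below those of the SoxC islands, while their folds overlapped. IP density there was 21.0 reads per kb for Sox1 and 22.9 for Sox2, below the 31.7 of Sox12, 28.0 of Sox11 and 34.3 of Sox4. These are point values without intervals. Counting error may bridge the nearest of them, those of Sox2 (96 IP reads) and Sox11 (230 IP reads), and the spread between replicates is unknown. Control density was also lower for Sox1 (7.75 reads per kb) and Sox2 (7.14) than for Sox4 (10.1), Sox12 (10.9) and Sox11 (11.1). Sox9 had 26.9 IP and 10.1 control reads per kb. The folds of SoxB1 (1.70 and 2.01) therefore lay within the SoxC range of 1.59 to 2.13. Over all islands within 100 kb the IP densities were 21.0 to 56.7 reads per kb for SoxB1 (median 22.9) and 26.1 to 43.1 for SoxC (median 33.5). The ranges overlapped through few islands. The 56.7 came from the 600 bp island near Sox3, and the other SoxB1 islands reached at most 26.3. The 26.1 came from the island across Zcchc3 and 6820408C15Rik. With 2 and 3 gene-end islands from 1 library, the difference in density was not tested.

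**Figure D4:**
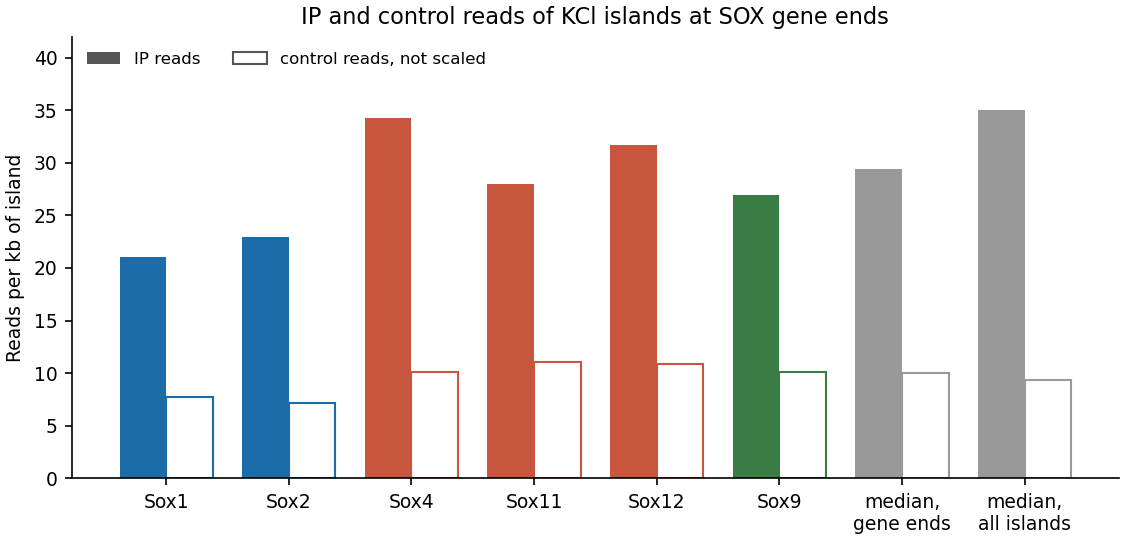
IP reads (filled bars) and unscaled control reads (open bars) per kb of island for the 6 KCl islands at SOX gene ends, with the medians of KCl islands at coding gene ends and of all KCl islands in grey. Sox1 and Sox2 have the lowest bars of both kinds, 21.0 and 22.9 IP reads per kb beside 7.75 and 7.14 control reads.

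Genes known to act with or below each subfamily were counted in the same way. An island at either end of the gene counted, so it need not lie at the start. Of 12 neuronal genes linked to SoxC, 10 carried a KCl island at an end, led by the projection neuron factor genes Fezf2 (3.03-fold [2.02 to 4.69]) and Tbr1 (2.62-fold [1.73 to 4.12]), the neurogenic factor gene Neurod2 (2.62-fold [1.53 to 4.75]) and Prox1, a homeobox gene of hippocampal granule neurons (2.24-fold [1.42 to 3.64]). Of 12 progenitor genes linked to SoxB1, 7 had one. The POU factor genes Pou3f3 (1.88-fold [1.51 to 2.37]) and Pou3f2 (1.59-fold [1.32 to 1.93]), whose products partner with SoxB1 proteins, were among them with the radial glia gene Fabp7 (1.84-fold [1.37 to 2.48]) and the receptor gene Notch1 (1.87-fold [1.31 to 2.71]). The Pou3f2 island was 16000 bp wide. Among the counted genes, the intervals of Neurog2 in the neuronal list (1.52-fold [0.988 to 2.39]) and Prom1 in the progenitor list (1.37-fold [0.857 to 2.25]) included 1.

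Of 12 glial genes linked to SoxE, 4 had an island at an end: the astrocyte glutamate transporter gene Slc1a3 (3.56-fold [1.74 to 8.22]), the oligodendrocyte precursor receptor gene Pdgfra (2.28-fold [1.44 to 3.74]), Olig1 (1.72-fold [1.09 to 2.78]) and Nfia (1.47-fold [0.941 to 2.36]). The myelin genes Mbp, Cnp and Mag had none there. Among 10 other SOX genes only Sox5, the SoxD partner of Sox6, had one (52 IP and 12 control reads, 2.72-fold [1.43 to 5.60]). Sox6, with its nearest outside island at 3.02 kb, would also count with a window of 5 kb. Sox21, a SoxB2 gene that opposes SoxB1, had none at its ends and 2 within 100 kb. Of the 45 distinct genes in these lists, 0 had a basal island at an end (0.411% of all genes) and 5 had one within 100 kb (4.71% of all genes), namely Sox5, Prom1, Map2, Bcl11b and Slc1a3. The shares are read against 25.2% of all coding genes, and differences between lists were not tested.

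**Figure D5:**
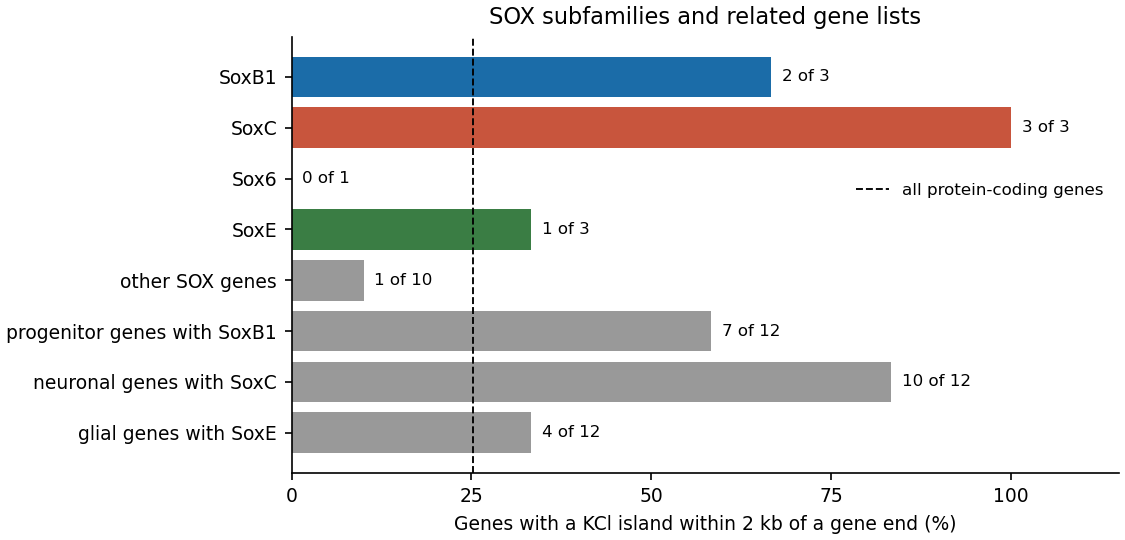
Percent of genes with a KCl island within 2 kb of a gene end in the SOX subfamilies (coloured bars) and in the lists of related genes (grey bars), with counts beside the bars and the share of all protein-coding genes, 25.2%, as a dashed line. The bars for SoxC (3 of 3), linked neuronal genes (10 of 12), SoxB1 (2 of 3) and linked progenitor genes (7 of 12) pass well beyond the line, those for SoxE (1 of 3) and linked glial genes (4 of 12) end slightly beyond it, and those for other SOX genes (1 of 10) and Sox6 (0 of 1) end below it.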

How the data were processed

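BRG1/BRM ChIP-seq islands of 1 basal and 1 KCl IP library were analysed, and the 2 input samples had no separate files here. Per the submitters' processing notes, alignment to mm10 (GRCm38) used BWA and islands were found with SICER 1.0. File names show its settings: 200 bp windows, 600 bp gaps, FDR 0.01. For each island the authors deposited raw read counts of the IP and of a control, a p-value, an adjusted p-value (q-value) and a fold, the IP/control ratio over a constant of 0.880 (basal) or 1.59 (KCl). Basal islands held 142021 IP reads in all and KCl islands 1433200. Library depth is unknown.

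Positions were made 1-based and compared with 21887 protein-coding genes of RefSeq GRCm38.p6, the same build, with Python 3.11.15, pandas 2.3.3 and scipy 1.17.1. A gene end is either end of a gene, within 2 kb. Overlap needed 1 bp. Fold intervals come from the binomial interval of IP among IP and control reads. The lowest control count near a member was 2, so the floor of 3 control reads for a count of 0 was not needed. The overlap and interval code was tested on simulated data. Reads without molecular identifiers are not independent molecules.

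The members and gene lists were chosen with earlier results of these data known. The text names every member, and of each other list up to 4 genes with the largest lower limit of the KCl fold at a gene end. Where a count of 5 or fewer genes, or a contrast such as the myelin genes, Sox21, Neurog2 or Prom1, is named outside this rule, the name was chosen after its values were seen. Promoter sequences came from RefSeq for 7 of 10 members, and Sox3, Sox9 and Sox10 had no entry in the table used. Some listed genes are not reported by name here. Alternatives varied windows, thresholds and list length.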

Additional observations from a re-analysis of the deposited data

How the results depend on the processing

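Of 43 alternatives to counts above 0, 22 stayed within 1.5 times the reported count, 20 were lower and 1 was higher. Of 13 alternatives to the counts of 0 (basal islands and overlap with them), 10 could not raise them, and the 3 looser ones (5 kb, 200 kb, within 1 kb) also gave 0. With islands of at least 2-fold, members with a KCl island at a gene end fell from 6 to 2 (Sox2 and Sox4) and members with one within 100 kb from 10 to 6. With the KCl list shortened to the 711 islands of the basal list, the gene-end count was 0 ranked by p or by fold, and the 100 kb count was 0 by p and 2 by fold (Sox3 and Sox6), so the coverage of SOX genes rests on the full list. A window of 1 kb, an FDR of at most 1e-05, or intervals above 1 left 6 members at gene ends, and a window of 5 kb gave 7, adding Sox6. Islands within 100 kb, over unequal searched lengths, numbered 5 for SoxB1, 9 for SoxC, 10 for Sox6 and 5 for SoxE. At 2-fold these were 2, 3, 5 and 1. Within 10 kb they were 3, 4, 6 and 1, and within 50 kb SoxC had 5 and SoxE 2. At 200 kb SoxE had 8. At an FDR of at most 1e-05 Sox6 had 6 and SoxE 3, and intervals above 1 left SoxE 3. Counting only islands nearest to an end of the member left SoxE 1. These changes follow from fewer or more islands admitted. No island near a member had 0 control reads, so the alternative floor gave no value. No paired analysis was possible because each condition had 1 IP library, and no replicate could be left out. Fewer than 20 IP reads made no KCl island, so weaker binding was not detectable.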
